A study of Mus musculus with 32 samples.

Results

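The response of DBA mouse mesentery to pristane was compared between day 18 and day 3 after treatment, to ask which genes answer the oil differently late and early. The comparison rests on 12 of the 32 arrays of the series, chosen by their strain and treatment labels. They are 3 arrays of DBA mice given 0.5 ml pristane (TMPD) into the peritoneal cavity and sampled after 18 days, 3 untreated DBA controls whose title codes lie in the same run of codes, 3 arrays of DBA mice sampled 3 days after the same dose, and 3 untreated DBA controls from that run of codes. The labels give the strain as DBA, with no substrain, age or sex. They do not say that each array came from a separate animal. The p-values therefore speak of how far arrays of a group scatter, whatever the source of that scatter. A response is the log2 signal of treated arrays minus that of their own controls, and the difference of responses is the day 18 response minus the day 3 response. A gene is called when its limma p, adjusted by the Benjamini-Hochberg method over 13016 genes, is below 0.05, and "rose" and "fell" are used only of calls.

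Pristane is a hydrocarbon oil that is not broken down in the peritoneal cavity and sets up a chronic granulomatous inflammation there, with oil-laden macrophages, granulocytes and lymphoid cells gathering in the fatty membranes. Type I interferons are cytokines released when cells sense nucleic acids; they act through a common receptor, the kinases bound to it and a complex that includes STAT2 and IRF9, which binds an element in target promoters and switches on antiviral sensors and effectors. Among the targets are the sensors and the factor IRF7 themselves, which feed the response forward, and USP18, which damps signalling at the receptor.

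Most interferon-stimulated genes tested had larger responses at day 18. Of 38 type I interferon-stimulated genes tested, 35 had a larger response at day 18 than at day 3 and 0 a smaller, where 2.47% of all genes were called in that direction. Their median difference was 2.26 on the log2 scale, against -0.06 over all genes. They were 35 of the 321 genes of any kind with a larger response. The 18 that rose at day 3 had become 37 by day 18 (16.4% and 22.4% of all genes). The median response went from 0.58 to 2.92. Gpnmb, a glycoprotein of lipid-laden macrophages, Tlr13, an endosomal receptor for bacterial RNA, and the mast cell tryptase Tpsab1 were also among the larger day 18 responses. Synuclein gamma (Sncg), the gluconeogenic enzyme gene Pck1 and the lipid droplet gene Plin4, all abundant in fat tissue, fell at day 18 and were not called at day 3. In whole tissue, fewer cells of a type and less RNA per cell cannot be told apart.

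Arrays within each DBA group correlated at 0.97 to 0.986, no pair of arrays was identical, and array medians ran from 91.5 to 122.8. The adipocyte hormone gene Adipoq had signals of 23470 to 30514 on the 6 control arrays. The 2 runs of title codes differ in ways that coincide with time: the 3'/5' signal ratio of actin, a measure of RNA integrity that is higher in degraded RNA, averaged 2.44 ± 0.38 (SD, n = 3) in the day 3 controls and 1.92 ± 0.087 in the day 3 treated arrays, against 1.29 ± 0.047 and 1.19 ± 0.036 in the day 18 controls and treated arrays. Xist, transcribed from the inactive X of females, was high on all 6 arrays of the day 3 codes and on 1 of 3 in each day 18 group, replicate 3. Untreated controls of the 2 runs differed in 3839 genes (29.5%; 13.9% higher and 15.6% lower in the day 18 run). The split of 1808 to 2031 was 534 to 3784 after median centring and 2255 to 1291 when a gene's probe sets were averaged. Treated arrays of the 2 times, compared directly, differed in 5350 (41.1%; 18.1% higher and 23% lower at day 18). That split of 2361 to 2989 was 1159 to 4518 and 2796 to 2197 under the same changes. The label of day 18 control replicate 3 carries a double code, with no word on whether it is a pool. Each response has controls of its own run, so a shift shared by a run cancels, but a gap within a run does not. In the day 3 run the actin ratio ran from 2.146 to 2.868 in controls and from 1.835 to 2.009 in treated arrays. In the day 18 run it ran from 1.265 to 1.348 and from 1.158 to 1.23. The part of these gaps was not tested, nor whether treatment acts alike in animals or RNA that differ so.

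Of 13016 genes, 545 (4.19%) were called for the difference of responses, 321 larger (2.47%) and 224 smaller (1.72%). At day 3, 3877 genes (29.8%) responded, of which 2131 rose (16.4%) and 1746 fell (13.4%). At day 18, 6166 genes (47.4%) responded, of which 2911 rose (22.4%) and 3255 fell (25%). Most of the early response was still present late: 1696 of the 2131 genes that rose at day 3 also rose at day 18 (79.6%), and 1474 of the 1746 that fell also fell (84.4%), while 10 genes were called in opposite directions. Across the 13016 genes, which are not independent replicates, the 2 responses had a Pearson r of 0.831, and they share no arrays. Of the 321 genes with a positive difference, 165 rose at day 18 and were not called at day 3, 137 rose at both times, 5 fell at day 3 and rose at day 18, and 14 fell at day 3 and were not called at day 18. Of the 224 with a negative difference, 151 fell at day 18 and were not called at day 3, 46 fell at both, and 27 rose at day 3, of which 5 fell at day 18.

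The number called depended on single arrays. It was 907 without day 18 replicate 1, 248 without day 18 replicate 3, 346 without day 18 control replicate 2, 352 and 247 without day 3 replicates 2 and 3, and 316 and 358 without day 3 control replicates 2 and 3. Leaving out replicate 2 of the BALB/c controls whose codes match the BALB/c day 18 arrays, an array that stands apart from the rest and enters here only through the estimate of the spread, gave 1238. Median centring of the arrays gave 232 larger and 88 smaller differences, which is 72.5% larger in place of 58.9%. The split was 411 to 410 with only the DBA arrays in the fit, 405 to 502 without day 18 replicate 1, 599 to 639 without that BALB/c control and 1275 to 1761 with array weights. Which direction held more calls depended on these choices. Statements below that a gene was called or held only without certain arrays concern the fits that each left out 1 DBA array. All 545 calls of the fit with every array also held without BALB/c control replicate 2. For 88 of the 321 larger and 60 of the 224 smaller differences, the controls of the 2 runs also differed, in the direction opposite to the difference of responses. These are 27.4% and 26.8%, where 15.6% and 13.9% of all genes had controls called in those directions. For 16 (4.98%) and 27 (12.1%) the controls differed in the same direction, against 13.9% and 15.6% of all genes. The same control arrays enter both comparisons.

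**Figure D1:**
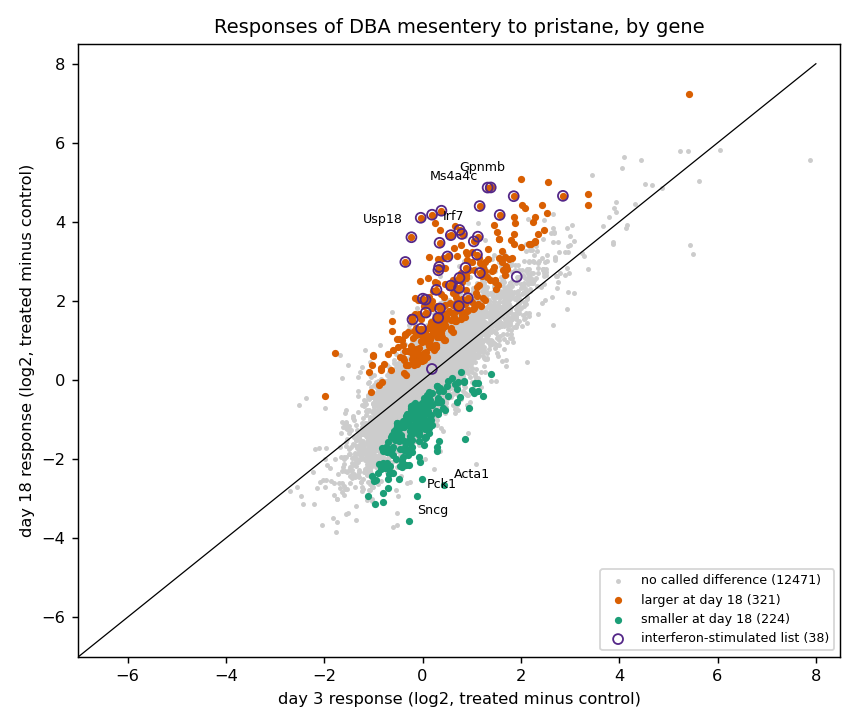
Each point is a gene, with its day 3 response on the x axis and its day 18 response on the y axis, both log2 of treated minus control signal in DBA mesentery (3 arrays per group); the line marks equal responses. Orange marks the 321 genes with a larger and green the 224 with a smaller called difference, and open circles mark the 38 interferon-stimulated genes, of which 35 are orange and lie above the line.

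Usp18, the protease that removes ISG15 from proteins and blocks the interferon receptor, had signals of 246, 188 and 182 on the day 3 controls, 229, 229 and 146 on the day 3 treated arrays, 243, 173 and 219 on the day 18 controls and 4135, 3236 and 4840 on the day 18 treated arrays. The first 3 groups overlapped fully and every day 18 treated array lay far above them. The day 3 response was -0.04 and the day 18 response 4.10, a difference of 4.14 (SE 0.42, adjusted p = 1.97e-06).

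Irf7, the transcription factor that amplifies interferon production, had signals of 322, 428 and 407 on the day 3 controls, 390, 582 and 377 on the day 3 treated arrays, 433, 316 and 353 on the day 18 controls, and 7583, 4960 and 9271 on the day 18 treated arrays. Only the last group stood apart. The difference was 3.99 (SE 0.62, adjusted p = 0.000349). Stat2, part of the complex that carries the receptor's signal, rose at both times, by 0.87 and 2.84, with a difference of 1.97 (SE 0.29, adjusted p = 0.00015). Irf9, its DNA-binding partner, went from 0.92 to 2.07, a difference of 1.15 (adjusted p = 0.0135) that was not called without day 3 control replicate 2 or day 3 replicate 3 (0.98 and 0.99). Isg15 had no probe set with a single symbol and was not tested.

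The Ifit genes encode proteins that bind foreign RNA and stop its translation. Ifit1 had signals of 340, 387 and 466 on the day 3 controls and 610, 577 and 404 on the day 3 treated arrays, which overlap, against 272, 179 and 247 on the day 18 controls and 5268, 3917 and 5807 on the day 18 treated arrays. Its difference was 3.90 (SE 0.43, adjusted p = 5.93e-06). Ifit3 and Ifit2 had negative day 3 responses that were not called (-0.23 and -0.35) and rose by 3.61 and 2.99 at day 18, with differences of 3.84 (SE 0.52) and 3.34 (SE 0.60). For Ifit2, day 18 replicate 2, at 965, lay well below the other two treated arrays at 3237 and 3820, though above all controls. The GTPase genes Mx1 and Mx2 had differences of 2.89 (SE 0.55) and 3.09 (SE 0.52). For viperin (Rsad2), a radical enzyme that makes a chain-terminating nucleotide, the difference was 2.52 (SE 0.58, limma adjusted p = 0.0132). The Rsad2 call was lost without day 18 replicate 3 or day 3 control replicate 2 (2.31 and 2.08).

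Genes that sense RNA or DNA moved in the same direction. Oas3, an oligoadenylate synthetase that activates RNase L, had signals of 22.5, 14 and 9.3 on the day 3 controls, 141, 75 and 34.8 on the day 3 treated arrays, 72.7, 29 and 23.4 on the day 18 controls, and 2093, 1230 and 2354 on the day 18 treated arrays. Unlike Usp18, it already rose at day 3 (1.32) before reaching 4.87 at day 18, and the controls lay below 103.7, the level used to drop dim probe sets, so the size of its responses depends on the offset added before the log. Its difference was 3.54 (SE 0.55, adjusted p = 0.00034). Oas2, Oasl1, Oas1a and Oasl2 each rose at both times and had differences of 3.04, 2.61, 2.5 and 2.46. The RNA helicases Dhx58 (LGP2), Ifih1 (MDA5) and Ddx58 (RIG-I) had differences of 3.13, 2.05 and 1.81; Ddx58 rose by 0.58 at day 3, and the other helicases were not called then. Zbp1, a sensor of Z-form nucleic acid, rose by 1.85 at day 3 and 4.65 at day 18, a difference of 2.80 (SE 0.39).

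The remaining genes with the largest differences are less well understood. Ms4a4c, a membrane protein gene of myeloid and lymphoid cells, went from a response of 1.39 to one of 4.87 (difference 3.48, SE 0.50); its probe set is of the kind the maker marks as able to bind other transcripts. Slfn1, a schlafen gene linked to lymphocyte growth control, went from 1.16 to 4.40 (difference 3.24, SE 0.45). Trim30d (difference 3.73, SE 0.62), Ifi209 (3.24, SE 0.48) and H2-T24, a nonclassical class I gene (3.09, SE 0.37), were not called at day 3. The Ifit, Oas, Slfn, Trim30 and Ifi200 families hold close relatives whose RNA the probes might share, which was not tested.

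**Figure D2:**
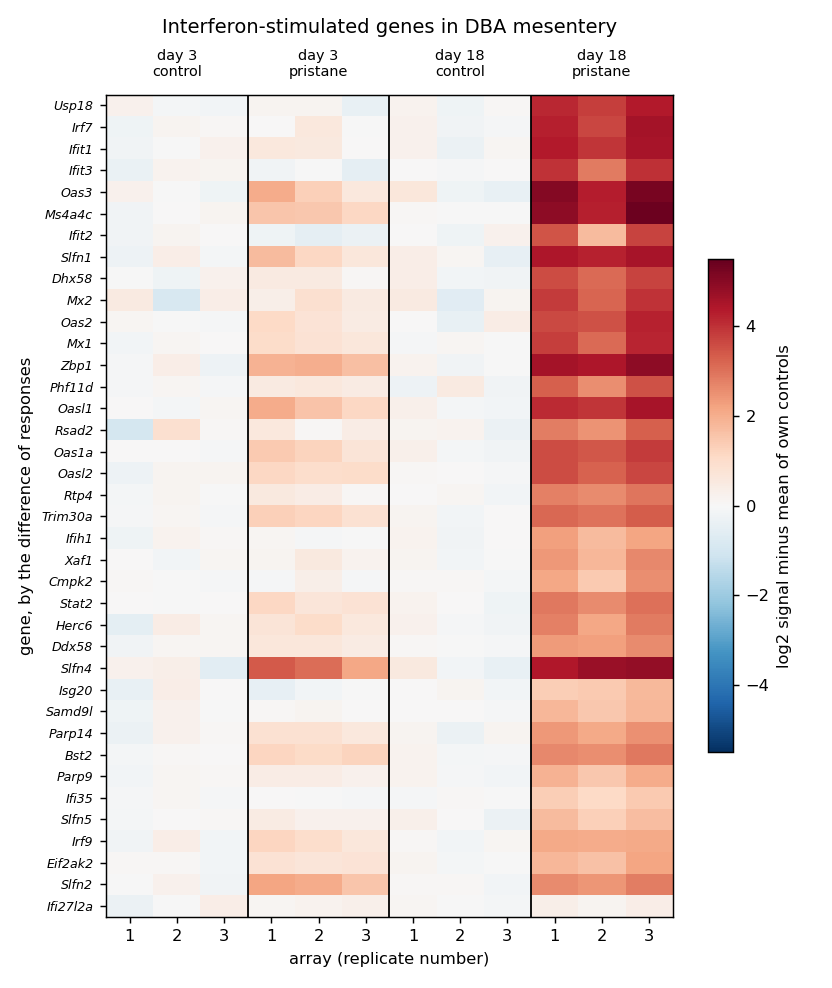
Rows are the 38 interferon-stimulated genes tested, ordered by the difference of responses, and columns are the 12 DBA arrays in their 4 groups of 3; colour gives log2 signal minus the mean of the array's own controls. The day 18 treated arrays are red for nearly every gene, the day 3 treated arrays are pale for most, and Ifi27l2a at the bottom is pale throughout.

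Averaged over the 38 genes as log2 signal, the day 3 treated arrays stood at 9.35, 9.28 and 9.03, the day 18 treated arrays at 11.81, 11.42 and 12.02, and the 6 controls between 8.42 and 8.89. Taking each treated array minus the mean of its controls, all 3 day 18 arrays lay above all 3 day 3 arrays for 37 of the 38 genes, against 17.2% of all genes. All 321 genes called as larger separated in this way, so for the 35 called members this count gives no added support. The count of 35 stayed between 32 and 36 when any 1 DBA array or the BALB/c control array was left out, and was 29 with only the Xist-low arrays of the day 18 run (median 2.07) and 29 with only its Xist-high arrays (median 2.63). The Xist-high fit has 1 treated and 1 control array of the day 18 run, taken to vary like the other groups, so it holds no check of replicates at day 18. Untreated controls of the 2 runs differed by a median of 0.18 over the list. Between them, 8 of the 38 were called (29.5% of all genes), 7 higher and 1 lower in the day 18 run. The 3 members without a called difference were Slfn5 (1.26, SE 0.45, adjusted p = 0.115), Slfn2, which had risen by 1.92 at day 3 already (0.70, SE 0.28, adjusted p = 0.174), and Ifi27l2a (0.09, 95% interval -0.42 to 0.59), whose signals were above 11000 on all 12 arrays, controls included.

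Markers of monocytes and macrophages, cells that express many of these genes, rose at both times. At day 3, 25 of 27 markers rose (16.4% of all genes), with a median response of 1.86. At day 18, 26 rose (22.4% of all genes), with a median of 2.09. Their median difference was 0.26, and 7 of the 27 were called as larger at day 18 (2.47% of all genes). The part of cell numbers in the interferon-stimulated genes was not tested.

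Promoters were searched for the interferon-stimulated response element, the sequence bound by the complex with IRF9, searched as GAAA, any pair of bases and GAAA again, on both strands, so that on the opposite strand it reads TTTC, any pair and TTTC. RefSeq windows of 250 bases before to 50 after the start of transcription on build GRCm38.p6 matched 26 of the 35 genes with a larger day 18 response. The element occurred in 11 of the 26 (42.3%), against 1079 of all 27025 genes with such a window (3.99%) and 391 of the 10455 that were tested (3.74%). It occurred in 40 of 253 genes with any larger difference (15.8%) and 4 of 180 with a smaller difference (2.22%). The stretches of 6 of these genes are shown because the element and 25 bases on each side lie before the start site, in genes described here. Capitals mark the element in these stretches, and overlapping copies run together. They lie at chr19:34640760-34640838 (+ strand, Ifit1), chr19:34583348-34583441 (+, Ifit3), chr5:120777700-120777759 (-, Oas3), chr12:26456538-26456597 (-, Rsad2), chr10:128270251-128270310 (+, Stat2) and chr8:71537562-71537627 (-, Bst2, the gene of tetherin), and each is written 5′ to 3′ along the gene's strand.
Ifit1: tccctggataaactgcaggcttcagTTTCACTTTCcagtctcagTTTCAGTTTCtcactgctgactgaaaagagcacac
Ifit3: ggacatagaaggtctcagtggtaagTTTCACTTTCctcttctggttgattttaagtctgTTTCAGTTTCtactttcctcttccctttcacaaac
Oas3: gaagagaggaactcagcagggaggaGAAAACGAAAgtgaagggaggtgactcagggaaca
Rsad2: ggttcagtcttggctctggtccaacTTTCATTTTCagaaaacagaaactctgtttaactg
Stat2: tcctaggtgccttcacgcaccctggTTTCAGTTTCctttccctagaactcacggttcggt
Bst2: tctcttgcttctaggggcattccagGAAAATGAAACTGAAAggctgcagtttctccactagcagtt
Ifit1 and Ifit3 hold 2 copies on the strand opposite to the gene, and Bst2 holds 2 overlapping copies on its own strand. Bst2 rose by 1.17 at day 3 and 2.71 at day 18, a difference of 1.54 (SE 0.31). A match of letters is a description and not a binding site.

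The other motifs searched in the same windows were NF-kappaB (GGGA, any base, TT, any base, CC), the E-box (CACGTG), the cell cycle element CHR (TTTGAA), C/EBP (TTGC, any pair of bases, AA) and PU.1 (GAGGAA followed by GT), on both strands. Among the 253 genes with a larger difference they occurred in 3.16%, 9.49%, 15.4%, 17.4% and 6.72%. Among the 180 with a smaller difference the shares were 1.67%, 8.89%, 15.6%, 12.8% and 0.556%, and among all genes tested 1.62%, 11.4%, 14.5%, 10.2% and 3.77%.

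The Ifi200 genes encode nuclear sensors and regulators of growth that interferon induces, and Mndal, a member of the family, is named in the title of the series. All 5 tested members had a positive difference, with a median of 1.36. Of them, 2 were called (4 without BALB/c control replicate 2), where 2.47% of all genes were called as larger. Ifi207 had signals of 293, 218 and 201 on the day 3 treated arrays, within reach of its day 3 controls at 139, 202 and 223, and of 888, 669 and 954 at day 18 against controls of 89, 78.7 and 66.5; its difference was 2.75 (SE 0.33, adjusted p = 1.85e-05), while the controls of the 2 runs differed by -1.03. Ifi204 went from a response of 0.65, not called, to 3.35, a difference of 2.70 (SE 0.39, adjusted p = 0.00015). Mndal had signals of 108, 34.4 and 11.6 on the day 3 treated arrays and 127, 160 and 134 on the day 18 treated arrays, against controls of 46.2, 58 and 34.1 and of 62.6, 47.7 and 24.9. It rose by 1.27 at day 18 and its difference of 1.36 (SE 0.61, adjusted p = 0.224) was not called. Ifi202b was the brightest, with 5738, 5377 and 4789 at day 3 and 11559, 12179 and 14206 at day 18; it rose by 2.10 and 3.27, and the difference of 1.17 was not called (adjusted p = 0.0568). Ifi203, near background, had a difference of 1.14 that was not called (adjusted p = 0.142).

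All 17 genes tested that respond more to interferon gamma had a positive difference, from 0.21 to 2.32. At day 3, 5 of the 17 rose and 1 fell (16.4% and 13.4% of all genes), and at day 18, 14 rose (22.4%). Of the 17, 5 had a larger day 18 response (2.47% of all genes) and 0 a smaller, with a median difference of 1.19. The 5 were Cxcl10, a chemokine for activated T cells (0.90, not called, to 3.19; difference 2.29, SE 0.55), and the immunity GTPases Irgm1 (1.97, SE 0.29), Gbp3 (1.85, SE 0.50), Iigp1 (1.81, SE 0.52) and Gbp7 (1.28, SE 0.30). Cxcl10 signals were 164, 174 and 138 on the day 3 treated arrays, of which the lowest still exceeded every day 3 control (113, 83.5 and 38), and 1286, 809 and 1548 on the day 18 treated arrays. The Irgm1 call held in every fit with 1 array left out. Cxcl10 was not called without day 18 replicate 3 or day 3 replicate 3 (2.09 and 2.20), nor Gbp7 without day 3 control replicate 2 (1.16). Gbp3 was called only without day 18 replicate 1 or 2, day 18 control replicate 2 or day 3 control replicate 1 (otherwise adjusted p of 0.0516 to 0.0993). Iigp1 was called only without day 18 replicate 2 or day 3 control replicate 1 or 3 (otherwise 0.0541 to 0.146). The count of 5 was 10 without BALB/c control replicate 2, 8 without day 18 replicate 2, 3 without day 18 control replicate 3 or day 3 replicate 1, and 2 without day 18 replicate 3, day 3 replicate 3 or day 3 control replicate 2.

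Among genes of antigen presentation on class I molecules, 3 of 14 had a larger day 18 response (2.47% of all genes) and 0 a smaller. The median difference was 0.75. The 3 were the peptide transporter Tap1, which went from 0.64 to 2.41 (difference 1.77, SE 0.32, adjusted p = 0.00169), the immunoproteasome subunit Psmb9 (1.45, SE 0.38) and the class I gene H2-M3 (1.05, SE 0.24). H2-M3 was not called without day 18 replicate 3 (0.92), and Psmb9 without day 18 control replicates 2 or 3, day 18 replicate 3, day 3 control replicates 2 or 3 or day 3 replicate 3 (adjusted p up to 0.0961). The count was 8 without BALB/c control replicate 2 and 1 without day 18 replicate 3. Of 11 class II genes, 0 were called in limma or in an ordinary linear model for the difference (2 had an unadjusted p below 0.05). The median was 0.45, and 4 rose at day 3 and 9 at day 18 (16.4% and 22.4% of all genes).

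**Figure D3:**
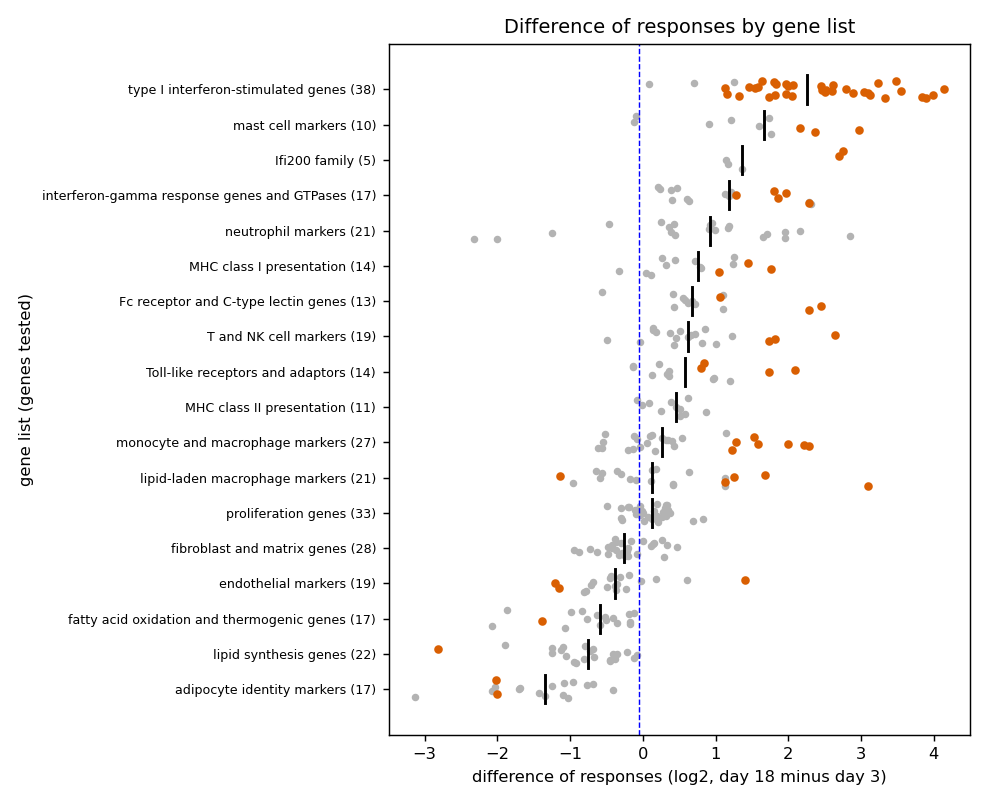
Each dot is a gene placed at its difference of responses (log2, day 18 minus day 3), for 18 gene lists with the number of genes tested in parentheses; orange dots are called, black bars are list medians and the dashed line is the median of all genes, -0.06. The interferon-stimulated genes lie furthest to the right with a median of 2.26, and the adipocyte markers furthest to the left with a median of -1.35.

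A few markers of lipid-laden macrophages had larger late responses. Gpnmb had signals of 126, 113 and 260 on the day 3 controls, 1239, 724 and 380 on the day 3 treated arrays, 275, 175 and 242 on the day 18 controls, and 10395, 4465 and 13663 on the day 18 treated arrays. The groups did not overlap at either time, and the rise went from 2.00 to 5.10 (difference 3.09, SE 0.54, adjusted p = 0.00109). Of 21 lipid-laden macrophage markers, 4 had a larger day 18 response and 1 a smaller (2.47% and 1.72% of all genes). Of the 21, 12 had a positive difference, with a median of 0.13. Gpnmb, the scavenger receptor Msr1 (1.68, SE 0.36, adjusted p = 0.00784), the lectin Lgals3 (1.25, SE 0.29) and the protease Ctsk (1.12, SE 0.31) were larger, and the fatty acid transporter Cd36, which adipocytes also express, was smaller (-1.14, SE 0.31). With a gene's probe sets averaged in place of the brightest one used, Msr1 was at 1.01 and not called (adjusted p = 0.0947). Trem2, a lipid receptor of such macrophages, rose by 4.45 and 5.57, and the difference of 1.12 was not called (95% interval -0.34 to 2.59). Lgals3 was not called without day 3 replicate 3 (1.07), Ctsk was called only without day 18 replicates 1 or 2, day 18 control replicate 1 or day 3 replicate 1, and Cd36 only without day 18 replicate 1 or day 3 control replicate 1 (otherwise adjusted p up to 0.123 and 0.112). Without day 3 replicate 3 the larger count was 2.

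Of the 27 general monocyte and macrophage markers, 7 had a larger day 18 response (2.47% of all genes) and 0 a smaller, and 18 had a positive difference. The membrane protein genes Ms4a7, Ms4a6d and Ms4a6c had differences of 2.21 (SE 0.26), 2.00 (SE 0.34) and 1.58 (SE 0.32). With probe sets averaged Ms4a6c was at 0.98, still called. Ms4a7 signals were 1384, 1046 and 883 on the day 3 treated arrays and 5110, 3686 and 6085 on the day 18 treated arrays, above controls of 291 to 410 in both runs. The lysosomal marker Cd68 (1.23, SE 0.30) and the pore-forming protein gene Mpeg1 (1.28, SE 0.31) were called as well, but not without day 18 replicate 3, day 18 control replicate 3 or day 3 replicate 3 (0.99 to 1.18), which took the count to 3, 4 and 3. Tyrobp, an adaptor of many myeloid receptors, rose by 2.26 and 2.52, a difference of 0.26 with a 95% interval of -0.33 to 0.86.

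Of 13 Fc receptor and C-type lectin genes, all rose at both times (16.4% and 22.4% of all genes). Of the 13, 3 had a larger day 18 response (2.47% of all genes) and 0 a smaller, with a median of 0.68. The activating IgG receptors Fcgr4 and Fcgr1 had differences of 2.45 (SE 0.41, adjusted p = 0.000698) and 2.28 (SE 0.55, adjusted p = 0.0178), and the lectin Clec4n 1.07 (SE 0.31, adjusted p = 0.0471). The low-affinity receptor Fcgr3 had a difference of 0.43 (95% interval -0.16 to 1.02). Fcgr4 held with each array left out, Fcgr1 was lost without day 18 replicate 3, day 3 replicate 3 or day 3 control replicate 2 (2.12 to 2.15), and Clec4n held only without day 18 replicate 1, day 18 control replicate 1, day 3 control replicate 3 or day 3 replicates 1 or 2 (otherwise adjusted p up to 0.171). The count was 5 without BALB/c control replicate 2 and 1 without day 18 replicate 3, day 3 replicate 3 or day 3 control replicate 2.

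Of 14 Toll-like receptor and adaptor genes, 4 had a larger day 18 response (2.47% of all genes) and 0 a smaller, with a median of 0.58. Tlr13 had signals of 195, 152 and 150 on the day 3 controls, 877, 642 and 531 on the day 3 treated arrays, 120, 96.9 and 74.8 on the day 18 controls, and 1636, 1870 and 2104 on the day 18 treated arrays. Treated and control arrays were apart at both times, and its difference was 2.09 (SE 0.33, adjusted p = 0.000433), with controls of the 2 runs differing by -0.65. Tlr7, the endosomal receptor for single-stranded RNA, went from 1.05 to 2.78 (difference 1.74, SE 0.36, adjusted p = 0.00559). The adaptor Myd88 (0.80, SE 0.22) and its inhibitor Irak3 (0.84, SE 0.19) had smaller differences; Irak3 was not called without day 3 replicate 3 (0.75), and Myd88 was called only without day 18 replicate 1, day 3 replicate 1 or day 3 control replicate 1 (otherwise adjusted p up to 0.108), so that the count was 2 without day 3 replicate 3. With probe sets averaged, Irak3 was at 0.39 and not called (adjusted p = 0.244).

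**Figure D4:**
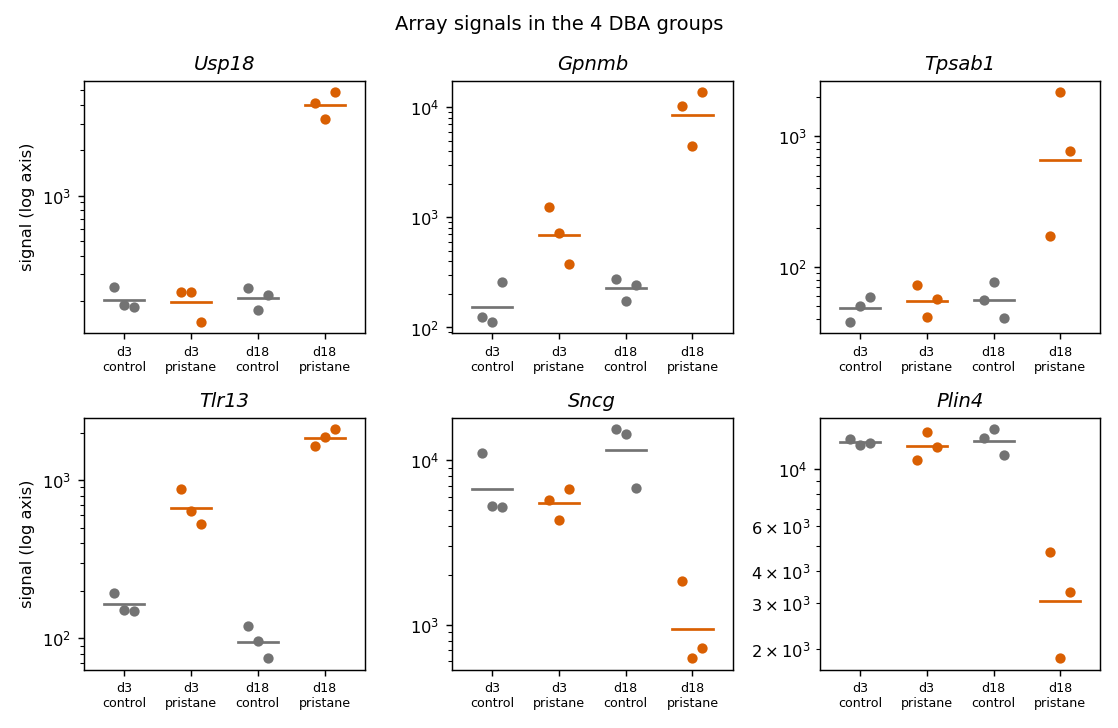
Array signals on log axes for 6 genes in the 4 DBA groups (3 arrays each; grey controls, orange pristane; lines are geometric means). Usp18 and Tpsab1 stand above their controls only at day 18, Gpnmb and Tlr13 at both times and further at day 18, and Sncg and Plin4 lie below their controls at day 18.

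Mast cell markers rose late. At day 3, 2 of 10 rose (16.4% of all genes), with a median response of 0.22. At day 18, 8 rose (22.4% of all genes), with a median of 2.16. For the difference 3 were larger (2.47% of all genes) and 0 smaller, with a median of 1.66. Tpsab1 had signals of 72.7, 41 and 56.5 on the day 3 treated arrays, at the level of the controls of both runs (38.1 to 76.6), and 171, 2170 and 777 on the day 18 treated arrays. These 3 arrays span a wide range, with replicate 2 highest and replicate 1 lowest. The difference was 2.97 (SE 0.64, adjusted p = 0.00759), not called with only the DBA arrays in the fit (adjusted p = 0.059) or with only the Xist-low arrays of the day 18 run (2.72, adjusted p = 0.0697). The tryptase Tpsb2 (2.37, SE 0.65) and the chymase Cma1 (2.16, SE 0.55) had the same order of arrays, with Tpsb2 at 440, 5758 and 1960 and Cma1 at 883, 7298 and 3397. The calls of Tpsb2 and Cma1 also rested on single arrays. Tpsb2 held only without day 18 replicate 1, day 3 replicate 1 or day 3 control replicate 1 (otherwise 1.51 to 2.48, adjusted p up to 0.0949). Cma1 was lost without day 18 replicates 2 or 3, day 18 control replicate 2, day 3 control replicates 2 or 3 or day 3 replicate 2 (1.47 to 2.08). The count of 3 was 8 without day 18 replicate 1 and 5 without BALB/c control replicate 2, and 1 without any of the 6 arrays just named for Cma1. Carboxypeptidase Cpa3 and the chymase Mcpt4 rose at day 18 by 1.86 and 1.43, and their differences of 1.77 and 1.59 were not called (adjusted p = 0.0674 and 0.119).

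Of 19 T and NK cell markers, 4 rose at day 3 and 14 at day 18 (16.4% and 22.4% of all genes). For the difference, 3 were larger (2.47% of all genes) and 0 smaller, with a median of 0.62. The interleukin-7 receptor Il7r had signals of 1104, 672 and 455 on the day 3 treated arrays against controls of 317, 453 and 421, and 2160, 2118 and 3405 on the day 18 treated arrays against 217, 231 and 183. Its difference was 2.64 (SE 0.40, adjusted p = 0.000221), and controls of the 2 runs differed by -0.83. The co-receptors Cd4 (1.74, SE 0.43) and Cd8b1 (1.82, SE 0.50) were dim, with signals of 72.8 to 118 and 71 to 240 on the day 18 treated arrays. Cd4 was lost without day 18 replicate 2 or day 3 replicate 3 (1.55 and 1.72), and Cd8b1 held only without day 18 replicate 1 or day 18 control replicate 1, and the count was 1 without day 18 replicate 2 or day 3 replicate 3. The T cell receptor subunit Cd3e had a difference of 1.01 that was not called (adjusted p = 0.161).

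All 17 adipocyte markers tested had a negative difference, 2 of them called (Plin4 and Acvr1c) where 1.72% of all genes were called as smaller, and the median was -1.35. At day 3, 3 of the 17 fell, and at day 18, 15 fell (13.4% and 25% of all genes). The median response went from -0.60 to -2.06. Plin4, which coats lipid droplets, had signals of 13085, 12404 and 12655 on the day 3 controls, 10860, 13901 and 12243 on the day 3 treated arrays, 13273, 14314 and 11327 on the day 18 controls, and 4764, 1834 and 3311 on the day 18 treated arrays. The first 3 groups overlapped and each day 18 treated array lay below them, a difference of -2.01 (SE 0.41, adjusted p = 0.00465). The activin receptor gene Acvr1c had 297, 62.8 and 184 at day 18 against controls of 1476, 1061 and 1025 (difference -2.03, SE 0.44). Leptin (Lep) had a larger but more variable difference of -3.13 (SE 1.03, adjusted p = 0.0838), and for Adipoq (-1.02) and the droplet gene Cidec (-1.43) it was not called either (adjusted p = 0.162 and 0.0878). Without BALB/c control replicate 2, 7 of the 17 were called, and without day 18 replicate 1, 9.

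The largest negative difference was that of Sncg, with 11048, 5297 and 5168 on the day 3 controls, 5714, 4348 and 6714 on the day 3 treated arrays, 15424, 14512 and 6743 on the day 18 controls and 1841, 627 and 724 on the day 18 treated arrays. It was -3.28 (SE 0.65, adjusted p = 0.00388). Pck1, which supplies glycerol for fat storage, had 6702, 8900 and 8603 on the day 3 treated arrays, close to controls of 4586 to 9521 in both runs, and 2768, 285 and 917 on the day 18 treated arrays. Its difference was -2.82 (SE 0.68, adjusted p = 0.0178), not called without day 3 replicate 3 (-2.77). Skeletal actin Acta1 (-3.10, SE 0.66), the neurotrophin receptor Ntrk2 (-2.47, SE 0.43) and the transcription factor Dmrt2 (-2.11, SE 0.45) kept their calls with each array left out. On day 18 replicate 2, Pck1, Plin4, Acvr1c, Lep and Ntrk2 were lowest of all 12 arrays, and Tpsab1, Tpsb2 and Cma1 were highest. With only the Xist-high arrays of the day 18 run, which leaves 1 array per group, Sncg, Acta1, Pck1, Ntrk2, Dmrt2, Acvr1c and Plin4 kept their direction and were not called.

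Amylase 1 (Amy1), the acute-phase protein gene Orm1, the small G protein gene Rasd1 and the succinate receptor Sucnr1 were, with Npas2, the others among the 12 largest negative differences of named genes, at -2.27, -2.17, -2.07 and -2.02. Each of these 4 lost its call without day 18 replicates 2 or 3, day 18 control replicates 1 or 2, day 3 replicates 2 or 3, or day 3 control replicates 2 or 3. Rasd1 also lost it without day 3 control replicate 1, and Amy1 without that array or day 18 control replicate 3. Across 22 lipid synthesis genes, 21 fell at day 18 and 11 at day 3 (25% and 13.4% of all genes). For the difference, 0 were larger and 1 (Pck1) smaller (2.47% and 1.72% of all genes), with a median of -0.76. Across 17 genes of fatty acid oxidation and heat production the numbers were 0 and 1, with a median of -0.60; the 1 was the carnitine acyltransferase Cpt2 (-1.39, SE 0.40), which held only without day 18 replicate 1 or day 3 replicate 1 (otherwise adjusted p up to 0.144) and was at -0.73 with probe sets averaged, not called (adjusted p = 0.244). Without day 18 replicate 1 the smaller counts of the 2 lists were 3 and 5, and without BALB/c control replicate 2 they were 2 and 2.

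Of 19 endothelial markers, 5 fell at day 3 and 14 at day 18 (13.4% and 25% of all genes). For the difference, 1 was larger and 2 smaller (2.47% and 1.72% of all genes), with a median of -0.38. The angiopoietin receptor Tek went from -0.19, not called, to -1.35, a difference of -1.16 (SE 0.26, adjusted p = 0.0102). The junction gene Cldn5 had -1.21 (SE 0.35), and held only without day 18 replicate 1 or day 18 control replicate 3; without BALB/c control replicate 2, 4 endothelial genes were smaller. The adhesion molecule Vcam1 moved the other way, from 1.22 to 2.62 (difference 1.40, SE 0.34), and was not called without day 18 replicates 2 or 3 or day 3 replicate 3 (1.18 to 1.34).

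A few genes with a called difference had responded at day 3 in the direction opposite to it. Of the 27 genes that rose at day 3 and had a negative difference, the orphan nuclear receptor Nr4a1 is described here. Its signals were 216, 265 and 404 on the day 3 controls, 730, 732 and 657 on the day 3 treated arrays, 1092, 2414 and 2228 on the day 18 controls and 1412, 1139 and 1562 on the day 18 treated arrays. The treated arrays of day 3 lay above their controls, those of day 18 overlapped with theirs, and the controls of the 2 runs differed by 2.56; the difference was -1.64 (SE 0.34, adjusted p = 0.00613). Of the 19 genes that fell at day 3 and had a positive difference, the thioesterase gene Acot3 went from -1.79 to 0.67, not called (difference 2.46, SE 0.48), and the glucocorticoid-induced Fkbp5 from -1.03 to 0.39, not called (1.42, SE 0.25). In both, controls differed between the runs, by -1.76 and -1.68. The metalloproteinase inhibitor Timp3 fell by 0.50 at day 3 and rose by 0.84 at day 18 (1.34, SE 0.25, adjusted p = 0.00191), with controls differing by -0.56. These genes were singled out after their values were seen.

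Clock genes showed how far the controls of the 2 runs lay apart. Of 16 tested, 13 differed between untreated controls (29.5% of all genes). Of these, 4 were higher and 9 lower in the day 18 run (13.9% and 15.6% of all genes), and the list median was -1.65. For the difference of responses 1 was larger and 2 smaller (2.47% and 1.72% of all genes). Npas2 had signals of 4.5, 7.8 and 1.0 on the day 3 controls and 426, 369 and 412 on the day 18 controls, Per2 had 747, 979 and 1040 against 32.7, 34.9 and 51.7, and Clock 518, 492 and 425 against 901, 1059 and 995. Their differences were -2.36 (SE 0.57), 1.83 (SE 0.50) and -1.21 (SE 0.19), each opposite in sign to the difference between controls of 3.87, -3.87 and 1.00. Npas2 was not called without day 18 replicates 2 or 3 or day 3 replicate 3. Its day 3 control signals lay below the 24.9 added before the log, and its difference ran from -4.80 with nothing added to -1.55 with probe sets averaged (adjusted p = 0.0778). Flooring at 24.9 also ended its call (-1.99, adjusted p = 0.0519). Per2 was at 1.14 with probe sets averaged, and was called only without day 18 replicate 1, day 18 control replicate 3, day 3 replicate 1 or day 3 control replicate 1. The larger clock count was 2 without BALB/c control replicate 2, day 18 replicate 1 or day 18 control replicate 3. Time of day at sampling is not given in the sources used here, and its part was not tested.

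Other strong responses were not called as different. Of 33 proliferation genes, 28 rose at day 3 and 29 at day 18 (16.4% and 22.4% of all genes), with median responses of 1.48 and 1.59. For the difference, 0 were called in limma or in an ordinary linear model (1 had an unadjusted p below 0.05), with a median of 0.12. The differences ran from -0.50 for Cdc20, an activator of the anaphase complex, to 0.83. For the mitotic kinase Cdk1 the 95% interval of the difference was -0.25 to 1.64. Of 21 neutrophil markers, 10 rose at day 3 and 18 at day 18 (16.4% and 22.4% of all genes). For the difference, 0 were called in limma or in an ordinary linear model (5 had an unadjusted p below 0.05), with a median of 0.92. Without BALB/c control replicate 2, 1 was larger and 1 smaller. The calprotectin genes S100a8 and S100a9 had responses of 5.43 and 5.5 at day 3 and of 3.43 and 3.18 at day 18, differences that were not called (adjusted p = 0.0952 and 0.0572); S100a9 was at 51.1, 202 and 120 on the day 3 controls and 3845, 1420 and 968 on the day 18 controls, while treated arrays reached 7467, 6839 and 4455 and then 9374, 27524 and 15899. The granule genes Camp and Ngp had positive differences of 2.84 and 1.95 that were not called (adjusted p = 0.239 and 0.518); on day 18 replicate 2 they reached 11312 and 21490 against 372 and 542, and 1060 and 1695, on replicates 1 and 3. Arginase 1 (Arg1) rose by 7.88 and 5.57 (difference -2.32, adjusted p = 0.152), and Il6, the growth factor of plasma cells, by 2.65 and 4.19 (1.54, adjusted p = 0.117).

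Choices of processing ended further calls of the difference. Median centring did so for Orm1, Rasd1, Sucnr1, Gbp3, Iigp1, Psmb9, Ctsk, Cd36, Clec4n, Myd88, Tpsb2, Cpt2, Cldn5 and Per2. Their adjusted p in limma then ran from 0.0513 for Tpsb2 to 0.108 for Myd88. The ordinary linear model did so for Amy1, Orm1, Rasd1, Sucnr1, Gbp3, Iigp1, Ctsk, Clec4n, Tpsb2, Cpt2, Cldn5 and Per2. Averaging probe sets did so for Vcam1 (1.16), Gbp7 (1.24), Iigp1 (1.79), Clec4n (0.97) and Cldn5. With only the DBA arrays in the fit, which changes the spread and not the values, Pck1, Amy1, Orm1, Rasd1, Clec4n, Tpsb2, Cma1, Cd8b1 and Cldn5 were not called (adjusted p from 0.0541 for Pck1 to 0.12 for Tpsb2). Flooring or adding nothing before the log did so for Fcgr1, Sucnr1, Clec4n and Cldn5. Adding nothing also ended the call of Per2 (2.355, limma adjusted p = 0.0642), and put Cd4 at 3.35, Cd8b1 at 3.76 and Acot3 at 4.06. With only the Xist-low arrays of the day 18 run, 41 calls of named genes were lost, strain calls among them. Tlr7 (1.56), Tek (-1.1) and Bst2 (1.40) were among these, with limma adjusted p of 0.0566, 0.065 and 0.0501. So were Cxcl10 (1.99), Rsad2 (2.14) and Fcgr1 (2.01), with limma adjusted p of 0.12, 0.114 and 0.122.

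The same difference was computed in BALB/c mice, the strain in which pristane leads to plasma cell tumours, from 7 treated and 7 control arrays. There the interferon-stimulated genes had already responded at day 3, with a median of 2.12, and stood at 2.55 at day 18; their median difference was 0.25 and 0 of 38 were called in limma, with 2 at an unadjusted p below 0.05 (47 of all genes were, 0.361%, of which 30 larger, 0.23%, and 17 smaller, 0.131%). Replicate 2 of the BALB/c controls with the day 18 codes entered these BALB/c values directly. Its best correlation with any other array was 0.891, and the BALB/c values were not computed without it. The difference between the strains was called for 31 genes (0.238%), 29 larger in DBA (0.223%) and 2 smaller (0.0154%), of which 13 were on the list of 38. Usp18 averaged 2410 on treated BALB/c arrays at day 3 and 3376 at day 18, against 201 and 4070 in DBA, with controls of 205 to 298 in both strains, and the strains' differences themselves differed by 3.65 (SE 0.58, adjusted p = 0.00627). Slfn1 (3.53, SE 0.62), Ifit1 (3.53, SE 0.58) and Oas3 (3.76, SE 0.75) followed. Chil3, a chitinase-like protein of alternatively activated macrophages, had means of 3152 and 507 on treated BALB/c arrays at day 3 and day 18, and of 822 and 2350 in DBA (3.85, SE 0.82), and the eosinophil-type ribonuclease Rnase2a had 12580 and 184 in BALB/c and 6994 and 2868 in DBA (3.37, SE 0.72). The 2 smaller in DBA were Rab30 (-1.51, SE 0.32) and Rtl8c (-1.2, SE 0.26).

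The strain count rests on few arrays. It was 77 without day 18 replicate 1 and 99 without BALB/c control replicate 2, 7 to 9 without day 18 replicate 3, day 3 replicates 2 or 3, day 3 control replicates 2 or 3 or day 18 control replicate 3, and 14 without day 18 control replicate 2. Usp18, Slfn1 and Ifit1 kept their calls with each of these left out. Chil3 held only without day 18 replicate 1, day 18 control replicate 1 or day 3 replicate 1 among the DBA arrays, Oas3 only without those or day 18 replicate 2, Rnase2a only without day 18 replicates 1 or 2, day 18 control replicate 2 or day 3 replicate 1, and Rab30 and Rtl8c only without day 18 replicates 1 or 2. With nothing added before the log, Chil3 (4.02, SE 1.79) and Oas3 (3.71, SE 1.11) lost their strain calls (limma adjusted p = 0.386 and 0.189). Rnase2a, Rab30 and Rtl8c were then at 0.0569. Median centring ended the strain calls of Chil3, Rnase2a, Rab30 and Rtl8c (adjusted p from 0.104 to 0.17). The ordinary linear model ended those of the same genes and of Oas3. In BALB/c the runs of codes differ between the times as well, and the day 18 arrays carry yet another code.

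**Figure D5:**
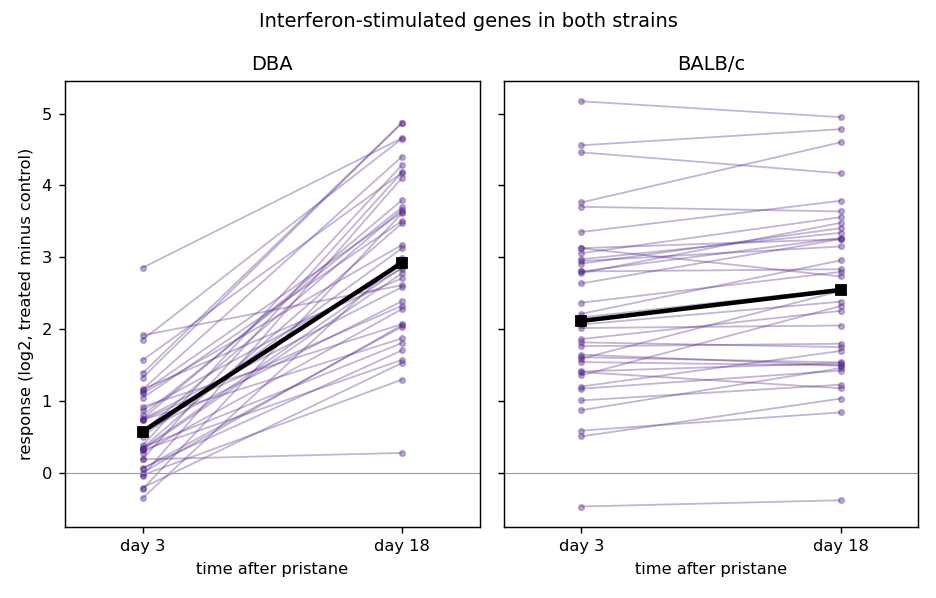
Each thin line joins the day 3 and day 18 responses (log2, treated minus control) of 1 of the 38 interferon-stimulated genes, in DBA on the left and BALB/c on the right; black squares are list medians. The DBA medians go from 0.58 to 2.92 and the BALB/c medians from 2.12 to 2.55.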

How the data were processed

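Total RNA of mesentery, 1 µg per array, was labelled and hybridised to Affymetrix mouse genome 430 2.0 arrays, per the labels' protocols. The deposited values are signal intensities on a linear scale, made by the authors with GCOS and MAS5, per the submitters' processing notes; versions are not given in the sources used here. On all 32 arrays the 2% trimmed mean of the deposited intensities was 500. Of 45101 probe sets, 34945 other than array controls had 1 gene symbol, 932 had several and 9211 none. The 64 array controls were left out of the tests, and some are counted among the probe sets with several symbols or none. Here 24.9, the 25th percentile of all values, was added before log2, and probe sets above the overall median (103.7) on at least 3 arrays were kept (23198). The brightest probe set stood for each gene, leaving 13016 genes. One limma model (3.58.1, R 4.3.3) with a mean for each group of all strains was fitted (22 residual degrees of freedom), with an intensity trend and Benjamini-Hochberg adjustment over all genes; limma is the tool behind every adjusted p. Arrays limit precision by their number, 3 per DBA group. Of 765 symbols on 44 gene lists, 684 were on the array with a single symbol and 647 were tested.

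Genes named are the 12 largest called differences of each sign without overlap between the times, leaving out clone-named genes and sex-linked genes, up to 4 of each list by size, the 6 largest strain differences of each sign, and the Ifi200 family, Cxcl10, Oas3 and Il6; further genes were chosen after their values were seen. The comparison, lists and rule were chosen with earlier results of these data known. On simulated data for the difference of responses (13016 genes), 49% of 100 genes changed by 1 on the log2 scale and 89% of 100 changed by 2 were recovered, and 6.76% of 148 calls were false. The simulated noise was normal, independent between genes and arrays, and of the fitted spread. It held no stray array and no shift shared by many genes of an array, so the rates do not cover these. Alternatives varied the offset, filter, probe set rule, scaling, model, array weights and the arrays included; those that use only Xist-low or Xist-high arrays were added after seeing the data.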

Additional observations from a re-analysis of the deposited data

Results flagged for a closer look

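The difference of responses between day 18 and day 3 in DBA mice, itself a test of one contrast at 2 times, was called for 545 genes. The test of that difference between the strains was called for 31 genes. Among the genes named, it was larger in DBA for Chil3 (3.85), Oas3 (3.76), Usp18 (3.65), Slfn1 (3.53), Ifit1 (3.53) and Rnase2a (3.37), and smaller for Rab30 (-1.51) and Rtl8c (-1.2), all on the log2 scale. Of these, only Usp18, Slfn1 and Ifit1 kept their calls under both median centring and the ordinary linear model. Chil3 was also set apart by 1 array: among the 4 BALB/c controls with the codes of the BALB/c day 18 arrays, replicate 1 had a signal of 7.6, farther from the other 3 than a test for a single stray value allows. Such a test marks about 1 in 20 groups by chance, and 16 were examined. The 4 Chil3 signals ran from 4.4 to 7.6, all below the 24.9 added before the log, so the stray value lies near background.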

How the results depend on the processing

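The values of 2 genes changed sign under an alternative: Ifi27l2a went from 0.09 to -0.019 with the Xist-low arrays alone and to between -0.085 and 0.25 with arrays left out in turn, and Rnase2a from -0.87 to 0.12 with the Xist-high arrays alone; neither was called. For the 545 differences of responses, median centring gave 320, the DBA arrays alone 821, array weights 3036, the Xist-low arrays alone 171, the Xist-high arrays alone 168, and arrays left out in turn 247 to 1238. For the day 3 response, weights gave 5872 and arrays left out 2599 to 5062. For the day 18 response, the Xist-high arrays gave 3227 and arrays left out 5174 to 7197. For the controls of the 2 runs, the Xist-high arrays gave 1585 and arrays left out 2913 to 5082. For treated arrays, weights gave 8042, the Xist-high arrays 3093 and arrays left out 4357 to 6534. For the 31 strain differences, flooring gave 19, plain log2 18, median centring 10, the ordinary linear model 10, weights 907, the Xist-low arrays 5, the Xist-high arrays 10 and arrays left out 7 to 99. The cause of these shifts was not tested, beyond fewer arrays entering the fits that use some of them. The 35 interferon-stimulated genes ranged from 29 to 37 over all alternatives and from 32 to 36 with arrays left out. Median centring moved the median of all genes from 0.03 to -0.24 between controls and from -0.06 to -0.02 for the difference of responses. No paired analysis was possible because the labels give the arrays codes that no 2 groups share. Signals near background, as for Oas3, Mndal, Npas2, Cd4, Cd8b1 and the BALB/c controls of Chil3 named above, limit the size of their folds.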
